A study of Mus musculus with 6 samples.

Results

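A set of 34 neutrophil granule and precursor genes was followed in macrophages grown from mouse bone marrow, with and without the glycolytic enzyme PKM2. The genes were taken by symbol, and 32 of them had a row among the 23935 symbols of the tables. They are the granule proteins of neutrophils, the proteins these cells hold in the cytosol or secrete, their surface receptors, and genes of their precursors and maturation. The set was put together with the difference between the genotypes in view, so the values of that difference below are a description of the members and carry no test. The levels of Bpi and Ly6g are not analysed here.

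Bone marrow-derived macrophages (BMDMs) of PKM2ΔMAC mice, which carry floxed PKM2 alleles and LysM-Cre, were compared with those of their control littermates, PKM2FL/FL mice, which carry the floxed alleles without Cre. Marrow of femur and tibia was cultured with M-CSF for 7 days, and the cells of both genotypes then received LPS at 10 ng/mL together with IFN-γ at 25 ng/mL over 16 h. Each genotype had 3 libraries, labelled as mouse 1 to 3, and no unprimed library was among them. The Cre of this line is expressed from the lysozyme 2 locus (Lyz2), which is active in neutrophils and their precursors as well as in macrophages, so the deletion need not be limited to macrophages. The age of the mice behind these libraries is not given in the sources used here.

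Neutrophils mature in the bone marrow and fill their granules in sequence. The primary (azurophil) granules are made first, at the promyelocyte stage, and hold serine proteases and myeloperoxidase. The specific granules follow, with lactoferrin and other proteins that bind metals or kill microbes, and the gelatinase granules come last. Each granule protein is transcribed mainly while its granule is being made, and transcription factors of the C/EBP family, PU.1, RUNX1 and GFI1 are known to direct this order. Mature neutrophils live for a short time, whereas macrophages grow out in M-CSF over days. Activated macrophages can also transcribe some of these genes, among them Lcn2, Hp, Mmp9, S100a8 and S100a9.

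The sequences upstream of the members are shown because these genes are known to be controlled together by such factors. RefSeq (GRCm38.p6) gave a start site for 29 of the 34 members, and the 250 bases before it were searched on both strands for a C/EBP motif (TTNNGNAA), a PU.1 motif (GAGGAA), a RUNX motif (TGTGGT) and a GFI1 motif (AAATCA). Of further members whose genotypes did not overlap, Camp, Pglyrp1 and Lrg1 had 0 C/EBP matches, and Lcn2, Chil1, Olfm4 and Cd177 had 1 each. The 5 stretches below, each with a C/EBP match, belong to members with high ratios between genotypes or high levels. They run 5′ to 3′ from the 250th base before the RefSeq start to the last base before the gene as annotated in GENCODE M21, and capitals mark the C/EBP motif.
Ngp, chr9:110419558-110419746, plus strand: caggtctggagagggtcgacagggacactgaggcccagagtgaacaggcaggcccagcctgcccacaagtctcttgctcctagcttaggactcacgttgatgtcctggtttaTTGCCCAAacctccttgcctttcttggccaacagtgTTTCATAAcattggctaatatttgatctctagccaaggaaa
Ltf, chr9:111019042-111019270, plus strand: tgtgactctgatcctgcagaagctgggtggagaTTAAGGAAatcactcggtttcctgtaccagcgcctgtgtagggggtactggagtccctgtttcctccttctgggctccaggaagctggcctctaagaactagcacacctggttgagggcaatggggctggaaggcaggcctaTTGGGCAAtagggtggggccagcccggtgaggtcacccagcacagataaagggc
S100a8, chr3:90668821-90668977, plus strand: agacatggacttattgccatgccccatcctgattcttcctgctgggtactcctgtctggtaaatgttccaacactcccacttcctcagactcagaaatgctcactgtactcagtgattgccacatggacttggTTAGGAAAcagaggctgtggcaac
S100a9, chr3:90695722-90695971, minus strand: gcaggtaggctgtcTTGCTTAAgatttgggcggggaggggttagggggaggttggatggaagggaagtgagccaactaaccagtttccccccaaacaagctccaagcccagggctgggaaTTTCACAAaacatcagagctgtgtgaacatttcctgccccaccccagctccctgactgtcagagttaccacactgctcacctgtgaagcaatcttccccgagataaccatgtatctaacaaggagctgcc
Fcnb, chr2:28084886-28085128, minus strand: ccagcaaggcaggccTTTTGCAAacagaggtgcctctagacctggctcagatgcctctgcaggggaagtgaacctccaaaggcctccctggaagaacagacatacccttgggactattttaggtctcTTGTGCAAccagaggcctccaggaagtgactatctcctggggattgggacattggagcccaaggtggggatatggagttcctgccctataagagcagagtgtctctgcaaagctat

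A C/EBP match was found upstream of 16 of the 29 members (55.2%), against 36.8% of the 32851 start sites in the table. For PU.1 the share was 18 of 29 (62.1%), against 23.3% of all start sites. RUNX was matched upstream of 4 members (13.8%) and of 14.0% of all start sites, and GFI1 upstream of 2 (6.90%) and of 12.4%. All 5 primary granule genes (Elane, Mpo, Prtn3, Ctsg and Bpi) had a PU.1 match and 0 of the 5 had a C/EBP match in this window, whereas 6 of the 7 specific granule genes with a start site had a C/EBP match and 4 of the 7 a PU.1 match. A match of letters is not a site of binding. The stretch upstream of Elane, the gene of neutrophil elastase, is shown for this contrast, with the PU.1 motif in capitals.
Elane, chr10:79886062-79886246, plus strand: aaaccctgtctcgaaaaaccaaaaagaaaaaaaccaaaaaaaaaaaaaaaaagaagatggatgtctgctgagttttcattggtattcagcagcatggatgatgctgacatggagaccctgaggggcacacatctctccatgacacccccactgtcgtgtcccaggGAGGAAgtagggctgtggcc

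Library totals were between 49957449 and 54524651 counts, so that 3 counts, the limit that a count of 0 allows, correspond to between 0.0546 and 0.0604 CPM (counts scaled to library size). Such limits cover counting error only. Pkm, the gene of PKM1 and PKM2, was at 1705 ± 8.09 CPM in the controls and at 1068 ± 125 CPM in PKM2ΔMAC (SD, n = 3 each; log2 fold change -0.68, SE 0.08, edgeR adjusted p = 0.00913). A count over the whole gene does not separate PKM1 from PKM2. Lyz2, whose locus carries the Cre, differed by -9.29 (SE 0.13, edgeR adjusted p = 8.53e-09), and its near-identical neighbour Lyz1, which can share reads with it, by 3.27 (SE 0.16, edgeR adjusted p = 0.0016). PKM2ΔMAC replicate 2 stood apart from the other 2 libraries of its genotype. Chi-square per degree of freedom over genes was 43.1 and 53.8 between it and those libraries and 10.1 between the other two, against 7.55 to 13.7 among PKM2FL/FL libraries. Members are therefore also given without it.

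The macrophage markers were abundant in every library. Csf1r, the M-CSF receptor, was at 1825 to 2482 TPM (a level corrected for transcript length, which can be compared between genes), and Adgre1, which encodes F4/80, was at 1792 to 2635 TPM. The members were below these levels, at up to 705 TPM for Hp and up to 309 TPM for the rest. Ly6g, the surface marker that defines mouse neutrophils, is not analysed here, so the cells that made the transcripts are not known. In bulk RNA fewer cells of a type and less RNA per cell cannot be told apart.

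Across the 30 members that passed the filter on low counts, the log2 fold change of PKM2ΔMAC over PKM2FL/FL was positive for 26 and negative for 4 (Csf3r, Hp, Cxcr1 and Padi4). Its median was 1.23, beside -0.000207 over all 16516 genes tested, whose quartiles were -0.086 and 0.10. Retnlg and Trem3 did not pass the filter and are given by their counts. In 12 members every PKM2ΔMAC library was above every PKM2FL/FL library in CPM, as was the case for 8.90% of all genes tested. These were Ngp, Ltf, Camp, Lcn2, Chil1, Olfm4, Pglyrp1, S100a8, S100a9, Lrg1, Cd177 and Fcnb. In 1 member, Csf3r, every PKM2ΔMAC library was below (8.34% of all genes), and in 19 the genotypes overlapped. edgeR called 0 of the 30 members, with 0.412% of all genes called (68 of 16516). An unadjusted p under 0.05 was found for 15 members, and for 9.83% of all genes. DESeq2 called 9 of the 32 members, with 1.38% of all genes called. The 9 were Cd177, Fcnb, Lcn2, Ltf, Ngp, Olfm4, Pglyrp1, S100a8 and S100a9, all higher in PKM2ΔMAC. Because the set was chosen on this contrast, nothing is read from these counts.

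**Figure D1:**
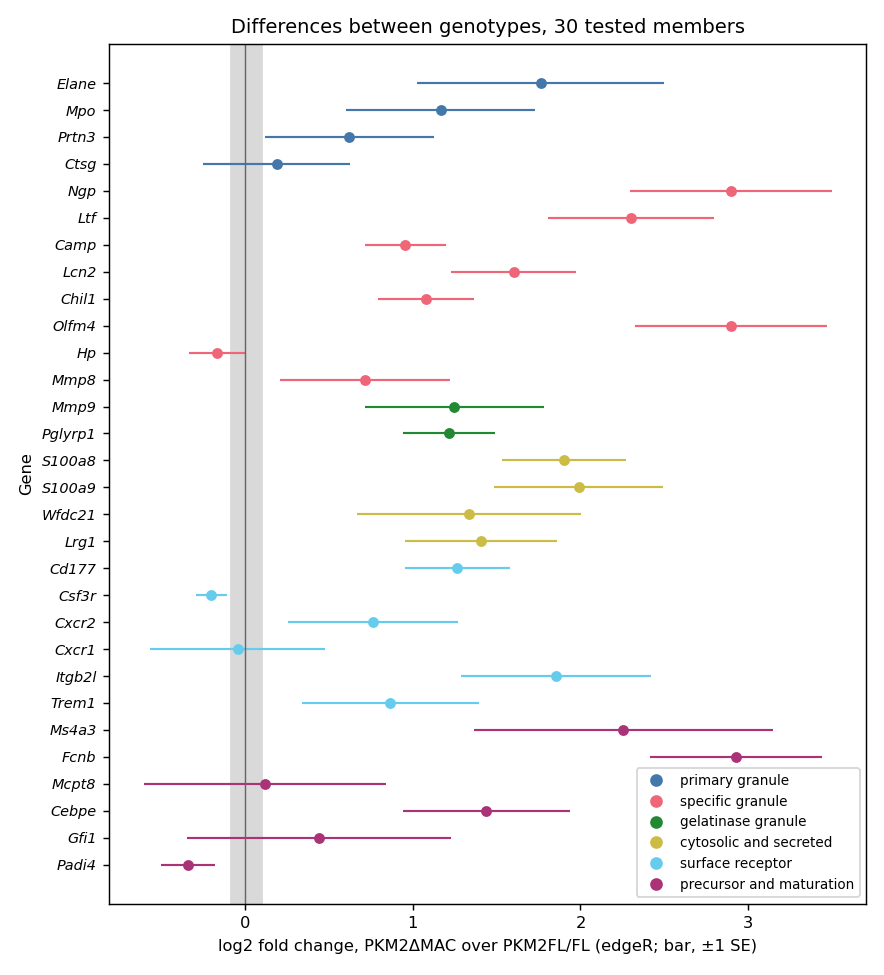
Log2 fold change of each of the 30 tested members, PKM2ΔMAC over PKM2FL/FL, from edgeR, with bars of 1 SE and colours for the class. The grey band spans the quartiles of all genes tested, from -0.086 to 0.10, and the points reach from -0.34 for Padi4 to 2.93 for Fcnb.

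Without PKM2ΔMAC replicate 2, the number of members with every PKM2ΔMAC library above every PKM2FL/FL library was 23 of 32, with 15.6% of all genes. The 11 members that joined were Elane, Mpo, Prtn3, Ctsg, Mmp9, Wfdc21, Itgb2l, Trem3, Ms4a3, Cebpe and Gfi1. The median over the members that passed the filter was then 1.42, and edgeR called 6 (Fcnb, Itgb2l, Lrg1, Mmp9, Olfm4 and Pglyrp1), with 1.77% of all genes called in that fit. Without PKM2FL/FL replicate 1 the number was 12 of 32, with 13.1% of all genes, and the median was 1.11. Leaving out a library can only keep or raise the number of members without overlap. PKM2ΔMAC replicate 2 was the lowest of its genotype for 28 of the 32 members, so nothing is read from these counts either.

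Primary granule genes had higher means in PKM2ΔMAC, with overlap in all 4 members analysed. The level of Elane was 0.462, 2.78 and 3.63 TPM in PKM2FL/FL replicates 1 to 3 and 8.34, 3.60 and 12.2 TPM in PKM2ΔMAC replicates 1 to 3, the order used throughout. PKM2ΔMAC replicate 2 lay just under the highest control. The log2 fold change was 1.76 (SE 0.74). Mpo, which encodes myeloperoxidase, was at 0.721, 2.27 and 2.91 TPM in the controls and at 4.91, 2.62 and 6.25 TPM in PKM2ΔMAC (log2 fold change 1.17, SE 0.56). Prtn3, the gene of proteinase 3, was at 1.05, 3.07 and 2.54 TPM and at 4.26, 1.69 and 4.69 TPM, respectively (0.62, SE 0.50). In both genes PKM2ΔMAC replicates 1 and 3 were above all controls and replicate 2 was within their range. Ctsg, the gene of cathepsin G, had 20 to 22 counts in the controls and 12 to 35 in PKM2ΔMAC, and its log2 fold change was 0.19 (SE 0.44). The 4 genes summed to 3.49, 9.58 and 10.4 TPM in the controls and to 19.8, 8.71 and 24.9 TPM in PKM2ΔMAC, with means of 7.82 ± 3.77 and 17.8 ± 8.27 TPM (SD, n = 3 each). Elane and Prtn3 are neighbours 3.07 kb apart on chromosome 10, and the Prtn3 and Mpo genes overlap annotated genes on the other strand, whose reads cannot be told apart without strand information.

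In 6 of the 8 specific granule genes every PKM2ΔMAC library was above every control, beside 8.90% of all genes. Ngp, neutrophilic granule protein (chromosome 9, 110419747 to 110423012), was at 5.79, 13.1 and 16.3 TPM in the controls and at 87.1, 45.5 and 140.4 TPM in PKM2ΔMAC. Even the lowest PKM2ΔMAC library was well above the highest control, and the log2 fold change was 2.90 (SE 0.60). Ltf, the gene of lactoferrin, which lies 596 kb from Ngp on the same chromosome, was at 2.39, 4.43 and 6.84 TPM in the controls and at 24.8, 14.4 and 31.1 TPM in PKM2ΔMAC (2.30, SE 0.50). Both genes carry 2 C/EBP motifs in the stretches printed above. In both the same libraries were lowest and highest within each genotype. In CPM these libraries were also the lowest and highest for other members. Among them were Lcn2, S100a8, S100a9 and Fcnb, which had a C/EBP match, and Elane, Mpo and Camp, which had 0.

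Lcn2, which encodes the siderophore-binding lipocalin 2, was at 2.33, 4.01 and 5.70 TPM in the controls and at 14.7, 8.77 and 14.7 TPM in PKM2ΔMAC (1.60, SE 0.37). Camp, the gene of the cathelicidin peptide CRAMP, was at 3.77, 4.77 and 6.34 TPM and at 9.65, 9.35 and 11.3 TPM (0.96, SE 0.24). In Camp the 3 PKM2ΔMAC libraries lay close together, unlike in Ngp and Ltf. Olfm4, the gene of olfactomedin 4, which marks a subset of neutrophils, was low, at 0.175, 0.461 and 0.232 TPM in the controls and 1.57, 1.29 and 3.92 TPM in PKM2ΔMAC. The log2 fold change of Olfm4 was 2.90 (SE 0.57), from 8 to 20 counts in the controls and 55 to 160 counts in PKM2ΔMAC, and it was 2.22 without PKM2ΔMAC replicate 3. Chil1, a chitinase-like protein, had 20 to 26 counts in the controls and 44 to 58 in PKM2ΔMAC (1.08, SE 0.28). The Olfm4 gene overlaps a long noncoding RNA on its own strand.

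Hp and Mmp8 were the members of this class whose genotypes overlapped. Hp, the gene of haptoglobin, which binds free haemoglobin, was the most abundant member, at 562, 666 and 682 TPM in the controls and 705, 485 and 593 TPM in PKM2ΔMAC (-0.17, SE 0.17). Hp alone made up 85.8% of the summed level of the class. Mmp8, the gene of neutrophil collagenase, was at 8.97, 14.0 and 17.9 TPM in the controls and at 14.5, 41.6 and 15.3 TPM in PKM2ΔMAC. Here PKM2ΔMAC replicate 2, the lowest of its genotype for most members, was the highest, and the other 2 PKM2ΔMAC libraries were within the control range. The log2 fold change of 0.72 (SE 0.51) was 0.084 without that library. The class summed to 677 ± 79.4 TPM in the controls and 759 ± 134 TPM in PKM2ΔMAC (SD, n = 3 each; log2 ratio 0.17). Without Hp the log2 ratio of the sums was 2.05.

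**Figure D2:**
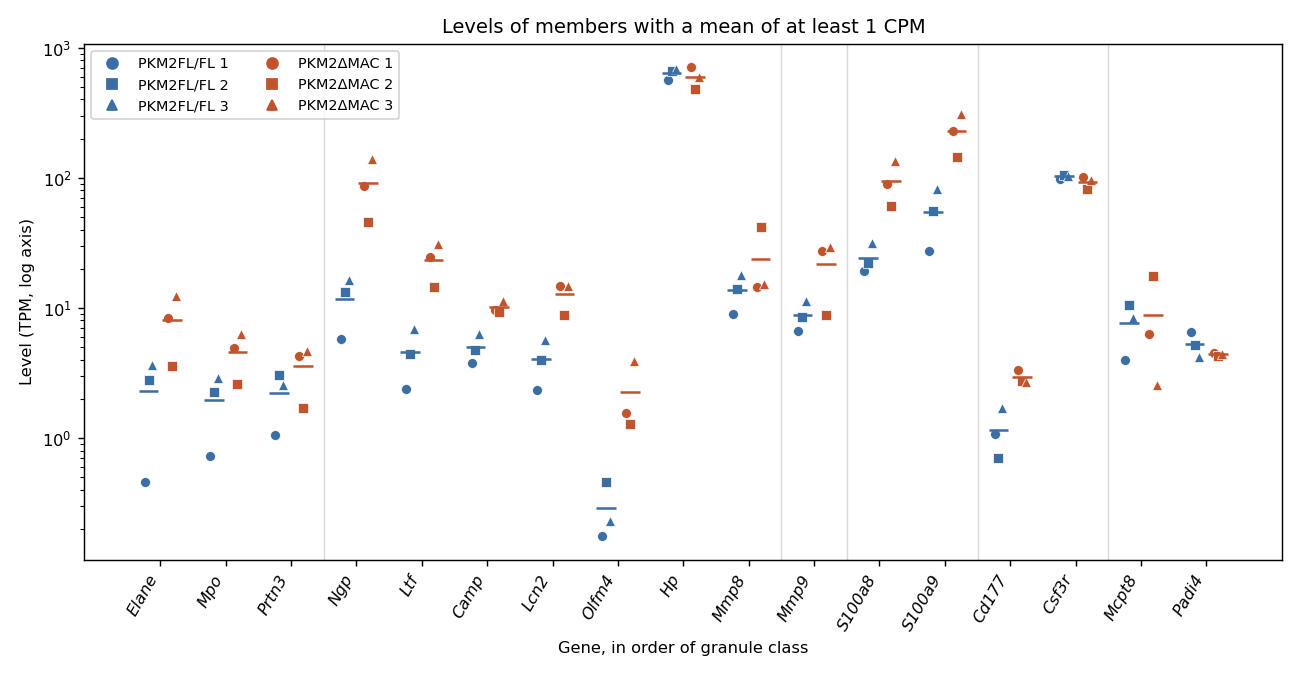
Level in TPM, on a log axis, of the 17 members with a mean of at least 1 CPM over the 6 libraries, one point per library and a line at the mean of the 3 libraries. Ngp, Ltf, S100a8 and S100a9 have all PKM2ΔMAC libraries above all PKM2FL/FL libraries, whereas Hp, at 485 to 705 TPM, and Csf3r, at 82.5 to 105 TPM, lie at similar levels in both.

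Of the gelatinase granule genes, Mmp9, the gene of gelatinase B, was at 6.65, 8.45 and 11.3 TPM in the controls and at 27.2, 8.80 and 29.3 TPM in PKM2ΔMAC (1.25, SE 0.53). Replicates 1 and 3 of PKM2ΔMAC were far above the controls, and replicate 2 was in their midst. Pglyrp1, the gene of a peptidoglycan recognition protein, had 25 to 33 counts in the controls and 55 to 76 counts in PKM2ΔMAC without overlap (1.22, SE 0.27). The pair summed to 9.88 ± 2.46 TPM and 24.4 ± 11.8 TPM, respectively (SD, n = 3 each; log2 ratio 1.30).

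S100a8 and S100a9, which encode the subunits of calprotectin and lie 22.6 kb apart on chromosome 3, dominated the cytosolic and secreted class. S100a9 was at 27.4, 55.2 and 82.4 TPM in the controls and at 229, 145 and 309 TPM in PKM2ΔMAC (1.99, SE 0.50). S100a8 was at 19.1, 22.2 and 31.6 TPM and at 90.4, 61.0 and 134 TPM (1.90, SE 0.37). In both genes the genotypes did not overlap, the lowest control was replicate 1 and the lowest PKM2ΔMAC library was replicate 2. Lrg1, the gene of a leucine-rich glycoprotein found in granulocytes, had 12 to 24 counts in the controls and 27 to 68 in PKM2ΔMAC (1.41, SE 0.45). Wfdc21 had 2 to 15 and 15 to 22 counts (1.33, SE 0.67), and its log2 fold change was 2.55 without PKM2FL/FL replicate 3. Retnlg, which encodes a resistin-like protein of mature neutrophils, differed from these genes. It had 2, 6 and 35 counts in the controls and 4, 8 and 12 counts in PKM2ΔMAC, and its highest value was in a control. The 5 genes summed to 83.0 ± 37.0 TPM in the controls and 329 ± 120 TPM in PKM2ΔMAC (SD, n = 3 each; log2 ratio 1.99).

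Surface receptors had members in both directions. Csf3r, the receptor of granulocyte colony-stimulating factor, is also transcribed in macrophages and was at 98.3, 105 and 104 TPM in the controls and at 101, 82.5 and 96.4 TPM in PKM2ΔMAC. The log2 fold change of Csf3r was -0.20 (SE 0.09). The groups overlapped in TPM, although in CPM every PKM2ΔMAC library was below every control. Cd177, a surface protein of a part of the neutrophils, was at 1.08, 0.697 and 1.69 TPM in the controls and at 3.32, 2.74 and 2.71 TPM in PKM2ΔMAC, without overlap (1.27, SE 0.31). The chemokine receptors Cxcr2 and Cxcr1 had 10 to 41 and 17 to 36 counts in the controls and 35 to 43 and 12 to 44 in PKM2ΔMAC (0.76, SE 0.50, and -0.044, SE 0.52), and that of Cxcr2 was 1.60 without PKM2FL/FL replicate 3. Itgb2l, an integrin beta subunit like that of the leukocyte integrins, had 9 to 20 counts in the controls and 74, 18 and 57 in PKM2ΔMAC (1.85, SE 0.57). Trem1, a receptor that amplifies inflammation, had 4 to 12 and 10 to 20 counts (0.86, SE 0.53). Trem3, its neighbour 0.853 kb away, had 0, 2 and 6 counts in the controls and 18, 4 and 25 in PKM2ΔMAC. The 0 in PKM2FL/FL replicate 1 allows a level of up to 0.0562 CPM if each count is 1 molecule, and more if both mates of a pair were counted, which was not tested. Csf3r made up 94.9% of the summed level of the class, whose log2 ratio was -0.07 with it and 1.10 without it.

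Precursor and maturation genes were low and varied between libraries. Fcnb, the gene of ficolin B, which is made by immature granulocytes, had 4, 6 and 10 counts in the controls and 62, 28 and 65 in PKM2ΔMAC, and its log2 fold change was 2.93 (SE 0.51), beside 2.90 for Ngp and for Olfm4. Ms4a3, a marker of granulocyte-monocyte progenitors, had 1, 11 and 4 counts and 20, 8 and 49 counts (2.26, SE 0.89), with overlap, and leaving out 1 library gave 1.32 to 3.31. Cebpe, the C/EBP factor needed for specific granules, had 14, 8 and 22 counts in the controls and 45, 22 and 53 in PKM2ΔMAC (1.44, SE 0.50). In all 3 genes PKM2ΔMAC replicate 2 had the fewest counts of its genotype. Gfi1, a repressor needed for granulocyte differentiation, had 6 to 19 counts in the controls and 20, 2 and 24 in PKM2ΔMAC (0.44, SE 0.79). The log2 fold change of Gfi1 was 1.04 without PKM2FL/FL replicate 2 and -0.082 without PKM2ΔMAC replicate 3. Mcpt8, a protease known from basophils and granulocyte precursors, was at 3.97, 10.6 and 8.39 TPM in the controls and at 6.30, 17.6 and 2.54 TPM in PKM2ΔMAC (0.12, SE 0.72). Leaving out PKM2ΔMAC replicate 2 turned this difference to -0.82, and leaving out replicate 3 gave 0.55. Padi4, which citrullinates histones in neutrophil extracellular traps, was at 6.50, 5.17 and 4.17 TPM and at 4.47, 4.28 and 4.40 TPM (-0.34, SE 0.16). For Mcpt8 and Padi4 the genotypes overlapped, and Mcpt8 was highest in PKM2ΔMAC replicate 2. Itgb2l, Trem1 and Gfi1 overlap annotated genes on the other strand, and Mcpt8 overlaps a microRNA gene on its own.

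**Figure D3:**
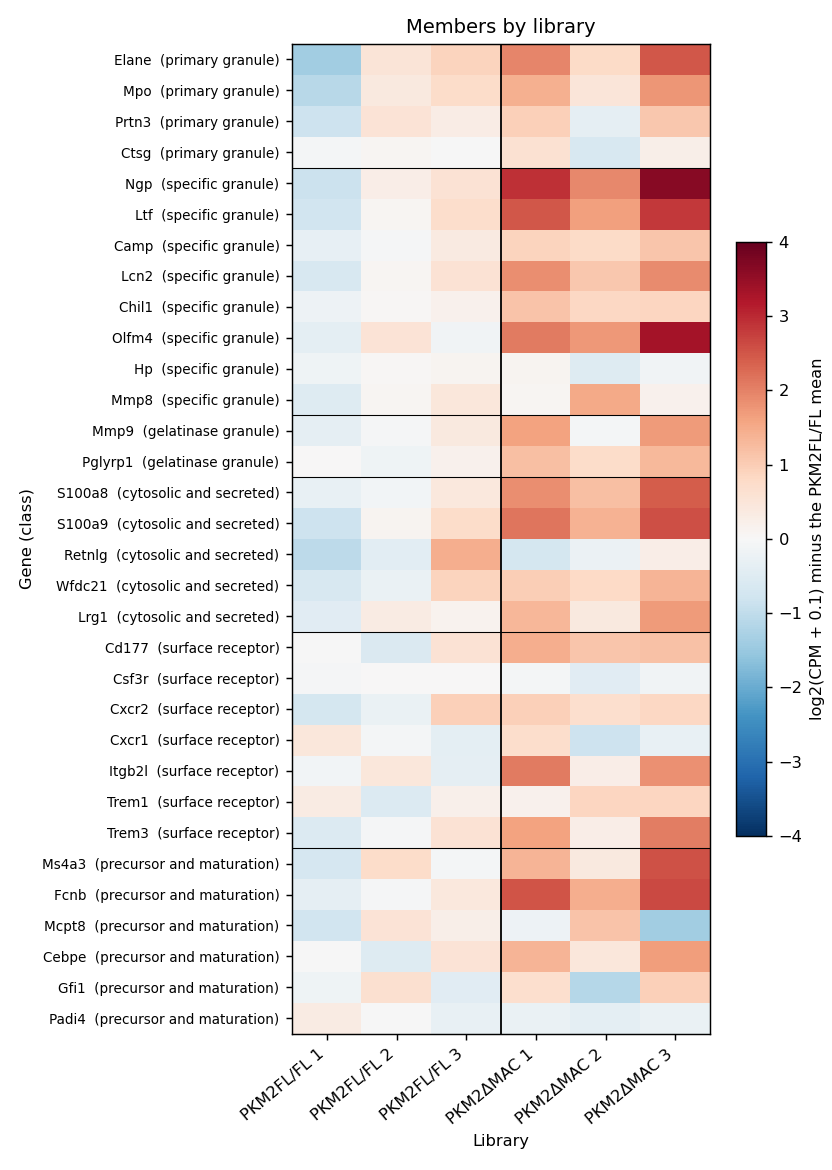
Log2(CPM + 0.1) of the 32 members in each library minus the mean of the 3 PKM2FL/FL libraries, by class, with red above and blue below that mean. PKM2FL/FL replicate 1 is the lowest control for 24 members and PKM2ΔMAC replicate 2 is the lowest of its genotype for 28.

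Within a genotype, many members were low or high in the same mice, which is given as a description, since the levels per library were known when the set was chosen. PKM2FL/FL replicate 1 was the lowest control for 24 of 32 members, as it was for 33.9% of all genes tested, and PKM2FL/FL replicate 3 the highest for 21, against 31.2% of all genes. PKM2ΔMAC replicate 2 was the lowest of its genotype for 28 of 32 members, against 37.0% of all genes, and PKM2ΔMAC replicate 3 the highest for 20, against 33.1%. Mmp8, Mcpt8 and Trem1 had their highest PKM2ΔMAC value in replicate 2. The members share libraries and depth, so these counts are not independent observations. Over the 30 tested members, the median distance from the control mean on the log2(CPM + 0.1) scale was -0.35, 0.057 and 0.33 in PKM2FL/FL replicates 1 to 3 and 1.26, 0.75 and 1.33 in PKM2ΔMAC replicates 1 to 3.

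The composition of the set was then compared within each library, as the ratio of a gene's TPM to that of S100a9, as a description. Ngp stood at 0.198 to 0.238 of S100a9 in the controls and at 0.314 to 0.455 in PKM2ΔMAC, and Ltf at 0.0803 to 0.0873 and 0.0991 to 0.108. Both ratios were higher in PKM2ΔMAC without overlap. The ratio of Lcn2 was 0.0692 to 0.0850 in the controls and 0.0476 to 0.0642 in PKM2ΔMAC, and that of Camp was 0.0769 to 0.138 and 0.0366 to 0.0644. Lcn2 and Camp were thus lower relative to S100a9, as were Mmp9, Mpo, Prtn3 and Ctsg, without overlap. Mpo, for example, was at 0.0263 to 0.0412 of S100a9 in the controls and at 0.0180 to 0.0215 in PKM2ΔMAC. The ratio of S100a8 was 0.384 to 0.697 and 0.395 to 0.433 and overlapped, as did that of Elane. Chil3, the gene of a chitinase-like protein of macrophages and neutrophils that is not a member and was picked after its values were seen, stayed between 0.240 and 0.304 of S100a9 in all 6 libraries.

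**Figure D4:**
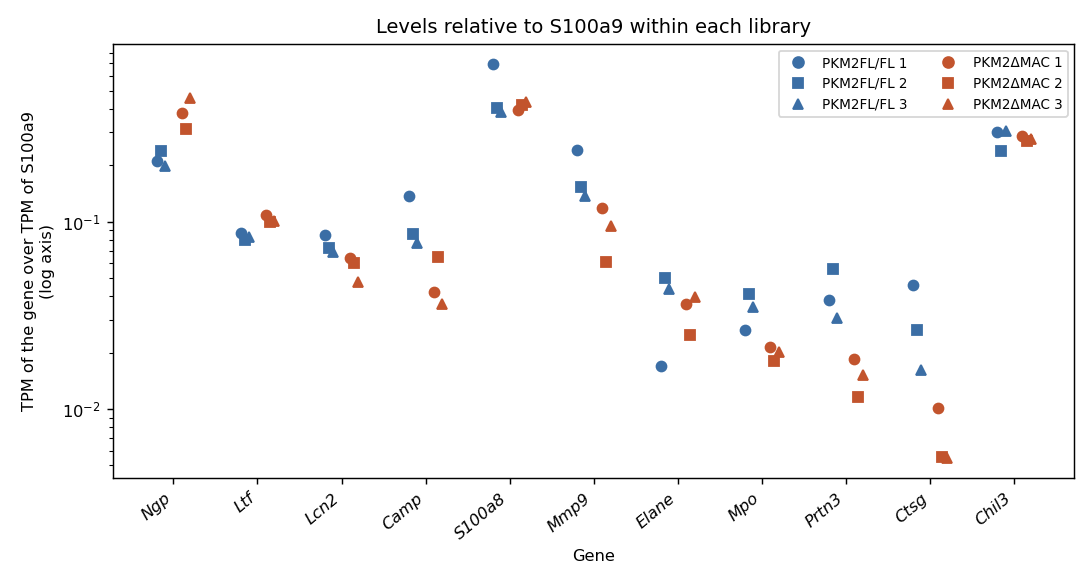
TPM of 10 members and of Chil3 divided by the TPM of S100a9 in the same library, on a log axis, one point per library. Ngp and Ltf lie higher in PKM2ΔMAC, Lcn2, Camp, Mmp9, Mpo, Prtn3 and Ctsg lie lower, and Chil3 lies between 0.240 and 0.304 in all libraries.

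From general knowledge, activated macrophages transcribe 12 of the 32 members. Log2 fold changes had a median of 1.25 over the 11 tested genes known from macrophages, 9 of them positive, and 1.22 over the 19 others, 17 of them positive. All PKM2ΔMAC libraries were above all controls for 4 of the 12 and 8 of the 20, beside 8.90% of all genes.

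Other lists were read beside the members. Of 22 further neutrophil genes, 12 were tested and 0 were called by edgeR, against 5 at an unadjusted p under 0.05 and 3 called by DESeq2 (Chil3 and the formyl peptide receptors Fpr1 and Fpr2, higher in PKM2ΔMAC). The median log2 fold change of the 12 was 0.27, with 10 positive and 2 negative. Fpr1 and Fpr2 were highest in PKM2ΔMAC replicate 2, at 1411 and 738 counts, unlike most members. Of the 22 genes, 18 had a row, and Stfa2l1, Asprv1, Mrgpra2a, Mrgpra2b and Ceacam10 were at 0 in some libraries. Il1r2, too low to be tested, had 4, 6 and 13 counts in the controls and 2, 4 and 2 in PKM2ΔMAC. Among neutrophil regulators (cytokines, chemokines and transcription factors), 0 of 14 tested genes were called by edgeR or DESeq2, and the median was 0.0068. An unadjusted p under 0.05 was found for 2, Irf8 and Cxcl5. Irf8 was at 115 to 120 TPM in the controls and 110 to 112 TPM in PKM2ΔMAC (log2 fold change -0.17, SE 0.04). Cxcl5 was at 20.1 to 33.3 TPM and 45.9 to 81.6 TPM (1.01, SE 0.33). Spi1, which encodes PU.1, and Cebpa were named for the motif search, after their values were seen. Spi1 was at 454 to 461 TPM in the controls and 453 to 530 TPM in PKM2ΔMAC, and Cebpa was at 386 to 412 and 388 to 411 TPM. The early myeloid progenitor genes had a median of 0.15, with 6 positive and 4 negative (Flt3, Cd27, Mycn and Gata1). In this list 1 of 10 genes was called. This was Prom1, with 4 to 6 counts in the controls and 28 to 39 in PKM2ΔMAC (log2 fold change 2.79, SE 0.42, edgeR adjusted p = 0.0326). The call of Prom1 was lost with a replicate block, with limma-trend without a filter, and without any 1 library other than PKM2ΔMAC replicate 2. Its log2 fold change stayed at 2.68 to 3.01 when 1 library was left out. With means of 0.044 TPM in the controls and 0.326 TPM in PKM2ΔMAC, it did not enter the other limma-trend fits, which needed a mean of at least 1 TPM. The 11 macrophage genes had a median of -0.071, with 3 positive and 8 negative, and 4 had an unadjusted p under 0.05. Of these 4, Lyz2 and C1qc (log2 fold change -0.13, SE 0.05) were lower in PKM2ΔMAC, and Itgam and Adgre1 were higher. In this list 2 genes were called by edgeR: Lyz2, given above, and Itgam, the gene of CD11b, which is shared by macrophages and neutrophils. Itgam was at 196 ± 2.54 CPM in the controls and 264 ± 9.30 CPM in PKM2ΔMAC (SD, n = 3 each; 0.43, SE 0.04, edgeR adjusted p = 0.00272), and it overlaps another annotated gene on its strand. DESeq2 also called Adgre1, which was at 1792 to 1891 TPM in the controls and 2095 to 2635 TPM in PKM2ΔMAC, with an edgeR log2 fold change of 0.26 (SE 0.07, adjusted p = 0.236).

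Markers of other cells were also measured, and edgeR called none of those tested. DESeq2 called Birc5 of the proliferation list and Pdgfrb of the stromal list. Without PKM2ΔMAC replicate 2, edgeR called Mki67 and Top2a of the first, Col1a1 and Pdgfrb of the second, and Ighm of the B cell list. The 15 proliferation genes were all positive in sign, with a median of 0.50 and 7 with an unadjusted p under 0.05, and their sum was 521 to 545 TPM in the controls and 668, 887 and 668 TPM in PKM2ΔMAC. The highest sum was in replicate 2, the library in which most members were lowest of their genotype. The 8 stromal genes summed to 3783 to 4199 TPM in the controls and 4137 to 4596 TPM in PKM2ΔMAC, with a median difference of 0.04 on the log2 scale and 1 unadjusted p under 0.05. Col1a1, a collagen of fibroblasts, was at 1040 to 1538 TPM over the 6 libraries, below Csf1r. The 6 monocyte genes summed to 128 to 175 TPM and 145 to 183 TPM (median 0.27, 1 unadjusted p under 0.05). B cell genes summed to 133 to 151 TPM in the controls and 133 to 216 TPM in PKM2ΔMAC (4 tested, median 0.42, 1 unadjusted p under 0.05), nearly all of it Ighm, with Pax5 at 0 in PKM2ΔMAC replicate 1. Mast cell and basophil genes, which bear on Mcpt8, summed to 3.41 to 5.21 TPM and 2.43 to 3.35 TPM (3 tested, median -0.71), with Mcpt4, Cma1 and Fcer1a at 0 in some libraries. Cpa3 and Hdc of this list had an unadjusted p under 0.05 in opposite directions, with log2 fold changes of -1.45 and 1.18. Eosinophil genes (2 tested, 5.68 to 12.7 TPM and 8.002 to 14.3 TPM), erythroid genes (3 tested, 8.20 to 10.9 TPM and 9.88 to 15.6 TPM) and T and NK cell genes (2 tested, 2.75 to 4.08 TPM and 1.17 to 2.45 TPM) had an unadjusted p under 0.05 for 0, 1 and 1 gene. Epx, Il5ra and Prg3 of the eosinophil list and Cd3e, Cd3d, Cd8a and Ncr1 of the T and NK cell list were at 0 in some libraries. Megakaryocyte genes (5 tested, 171 to 192 TPM and 152 to 227 TPM) and dendritic cell genes (7 tested, 118 to 207 TPM and 96.5 to 275 TPM) had 0 genes with an unadjusted p under 0.05. The part of any of these cells, or of the library that stands apart, in the values of the members was not tested.

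**Figure D5:**
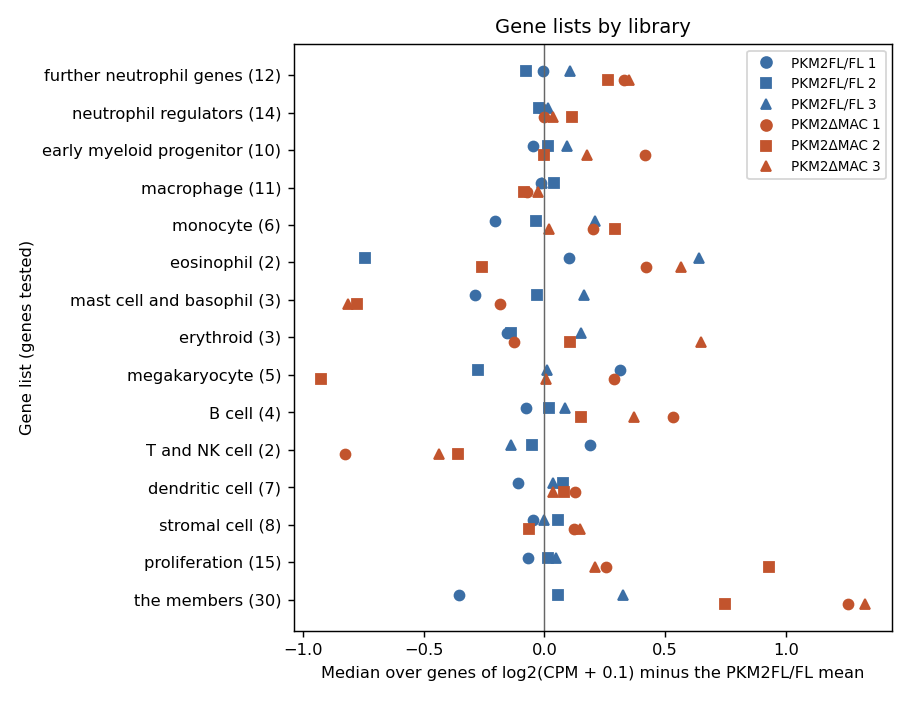
Median over the tested genes of each list of log2(CPM + 0.1) minus the mean of the 3 PKM2FL/FL libraries, one point per library, with the number of genes in parentheses. The members reach 1.26, 0.75 and 1.33 in PKM2ΔMAC, and the proliferation genes are highest in PKM2ΔMAC replicate 2, at 0.93.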

How the data were processed

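RNA-seq of 6 libraries of primed BMDMs, 3 per genotype, was analysed. For each gene symbol the authors deposited a raw count and a TPM value. The submitters' processing notes name FastQC 0.12.1, Trim Galore 0.6.10, HISAT2 2.2.1, SAMtools 1.19.2, Subread 2.0.6 and the mm10 genome. Strandedness, annotation and filters are not given in the sources used here. Of counts from 1 to 20, 68.2% were even. If both mates of a pair were counted, low counts hold fewer molecules than they show, which was not tested. Columns were matched by genotype and mouse number, and 0 were left unmatched.

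Counts were tested with edgeR 4.0.16 (R 4.3.3, limma 3.58.1), with filterByExpr, TMM factors between 0.980 and 1.04, genotype as the only term and robust quasi-likelihood, with Benjamini-Hochberg adjustment over 16516 genes (threshold 0.05). The procedure was tested on simulated data, with the same spread between libraries (dispersion 0.0128) for every gene and changes of log2 1. Members that vary more between libraries were not covered by it. DESeq2 1.42.0, other factors, no filter, a replicate block, limma-trend on log2(TPM + 1) or log2(TPM + 0.1), and leaving out each library were alternatives. Levels between genes are in TPM, and differences come from edgeR. Positions are from GENCODE M21 (GRCm38, the assembly of mm10) and upstream sequences from RefSeq. Where a gene had several starts, the first was used.

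Members with a mean of at least 1 CPM were given per library, others by counts. Genes outside the set were named where edgeR called them in a list, where they define a cell type, or for the Pkm and lysozyme loci. Those named for an alternative's call or for an unadjusted p under 0.05 were chosen after their values were seen. The members, classes and lists were chosen with earlier results of these data known.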

Additional observations from a re-analysis of the deposited data

How the results depend on the processing

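Depth limits the 15 members under a mean of 1 CPM, and 79.6% of the 54 member counts from 1 to 20 were even. The sign of the log2 fold change was kept under all 13 alternatives at which a member was fitted for 26 of the 30 tested members, and it changed under some for Ctsg, Cxcr1, Mcpt8 and Gfi1. Of the tested members, 12 moved by more than the spread between replicates under some alternative. With limma-trend on log2(TPM + 1) without a filter, which understates changes of low genes, Fcnb was at 1.43 in place of 2.93, Olfm4 at 1.26 in place of 2.90, Ms4a3 at 0.65 in place of 2.26 and Itgb2l at 0.54 in place of 1.85. Among members with few counts, leaving out 1 library moved the log2 fold change of Ms4a3 from 2.26 to between 1.32 (without PKM2ΔMAC replicate 3) and 3.31 (without PKM2FL/FL replicate 2). PKM2FL/FL replicate 3, the highest control, moved that of Wfdc21 from 1.33 to 2.55 and that of Cxcr2 from 0.76 to 1.60 when left out, and PKM2FL/FL replicate 1 moved them to 0.88 and 0.40. The causes of the changes below were not tested, other than that fewer samples or genes enter some fits.

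The number of genes called, 68 (47 higher and 21 lower in PKM2ΔMAC), was 280 with DESeq2 (184 and 96), 120 without the filter on low counts (77 and 43), 41 with limma-trend on log2(TPM + 1), 32 on log2(TPM + 0.1) and 36 on log2(TPM + 1) without a filter. Leaving out 1 library gave 22 to 299. The 299 (164 and 135) came without PKM2ΔMAC replicate 2, and the numbers without PKM2FL/FL replicate 1, 2 or 3 were 26, 27 and 22. Among the members, Fcnb was called without the filter, and 0 were called with RLE factors, with limma-trend, or without any 1 library other than PKM2ΔMAC replicate 2. Among the other lists, 3 genes were called (Itgam, Lyz2 and Prom1), 9 with DESeq2, and 2 to 11 when leaving out 1 library, with 11 without PKM2ΔMAC replicate 2 (Adgre1, Fpr1 and Fpr2 among them). A replicate block added Cxcl5 and Fpr2. Itgam and Lyz2 were called under all 13 alternatives. Prom1 was not called with a replicate block, with limma-trend without a filter, or without any 1 library other than PKM2ΔMAC replicate 2. It was too low to enter the other limma-trend fits. When 1 library was left out, its log2 fold change was 2.68 to 3.01, beside 2.79 with all libraries.

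With a replicate block, 82 genes were called, among them S100a8. The numbers are not known to pair the mice, since deviations of same-numbered libraries correlated at 0.0797, 0.1408 and 0.0188.

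The log2 ratio of summed levels moved with the genes in the sum. For specific granules it was 2.05 without Hp and 2.53 without genes known from macrophages. For the cytosolic and secreted class it was 2.37 without PKM2FL/FL replicate 3. Without genes known from macrophages, which leaves Retnlg, a gene that did not pass the filter, it was -0.79, and 1.07 when PKM2FL/FL replicate 3, with 35 counts, was also left out (chosen after seeing the data). For surface receptors it was 1.10 without Csf3r and 0.94 without genes known from macrophages, and without PKM2ΔMAC replicate 2 it was 0.017. For the precursor class it was 0.43 in TPM and 0.065 in CPM.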
